A study of Mus musculus with 21 samples.

Results

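The RB pathway genes described here are 10 genes of the step that commits a cell to copy its DNA: the CDK inhibitors Cdkn2a, Cdkn2b and Cdkn2c, the kinases Cdk4 and Cdk6, the D cyclins Ccnd1, Ccnd2 and Ccnd3, the pocket protein gene Rb1 and the transcription factor gene E2f1. They were chosen by gene symbol, and each was found once among the 54532 genes of the deposited table. Polyadenylated RNA was sequenced in 21 libraries from 7 mouse glioma stem-like lines derived from the brain tumours of engineered mouse models. The 4 IDH1 mutant lines were PIC144-1, PIC144-3, PIC496-3 and PIC496-4, and the 3 IDH1 WT lines were PC134-0, PC308-1 and PC326-1, each with 3 libraries. The labels name the IDH1 genotype only and give no other allele, no driver promoter, no age and no treatment. All lines were kept in neural stem cell medium with EGF and bFGF at low oxygen, so both groups received growth factors. PIC144-1 and PIC144-3 share the number in their name, as do PIC496-3 and PIC496-4, and each pair could stem from a single animal. The labels leave this unsaid.

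D cyclins are made in response to growth factors and bind CDK4 or CDK6. The active kinases phosphorylate RB, the product of Rb1, which then releases E2F transcription factors, and these switch on genes of DNA synthesis. INK4 proteins, encoded by Cdkn2a, Cdkn2b, Cdkn2c and Cdkn2d, bind CDK4 and CDK6 and keep them from the D cyclins. In human gliomas this pathway is often broken by loss of CDKN2A, gain of CDK4 or loss of RB1, and low or absent transcripts of the lost gene can be one trace of such an event.

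Values are FPKM, the fragments per kilobase of gene scaled to library size that the authors deposited. Levels of different genes are set side by side per base of the deposited gene length. Where that length exceeds that of the transcripts made, the level is understated. Ratios and shares between genes are thus of FPKM and not of transcript numbers. A line's value is the mean of its 3 libraries, with the SD between them. Libraries held 15011668 to 21966351 fragments assigned to genes, and a member gene was read by 216 to 46319 fragments per library. The coefficient of variation between libraries of a line was below 10% in 53 of the 70 combinations of gene and line, with a median of 6.92% and a highest value of 21.2%. Markers of the labelled cell type were present: Sox2, Nes, Olig1, Olig2 and Cspg4 were at 0.5 FPKM or more in every line. Prom1 was near 0 in PIC144-1 (0.0948 FPKM) and PIC496-3 (0.147 FPKM), and Pdgfra in PIC496-4 (0.436 FPKM). All 4 immune markers and all 3 endothelial markers were below 0.5 FPKM in every line, with summed levels of at most 0.0565 and 0.105 FPKM in IDH1 mutant lines, against most 0.0567 and 0.0690 FPKM in IDH1 WT lines. The summed level of 3 astrocyte markers was 0.371 to 6.88 FPKM in IDH1 mutant lines and 0.270 to 7.62 FPKM in IDH1 WT lines, and that of 3 neuron markers 0.164 to 7.04 FPKM in IDH1 mutant lines and 0.941 to 2.59 FPKM in IDH1 WT lines. The high ends of the astrocyte sum were Aldh1l1, at 6.61 FPKM in PIC496-3 and 7.49 FPKM in PC308-1 and at most 0.545 FPKM in the other lines. Gfap was near 0 everywhere, and Aqp4 was at 1.57 FPKM in PIC496-4 and at most 0.264 FPKM elsewhere. Of the neuron markers Rbfox3 and Snap25 were near 0 everywhere, and Syt1 was at 0.0656 to 6.54 FPKM in IDH1 mutant lines and 0.611 to 2.43 FPKM in IDH1 WT lines. Of the fibroblast and pericyte markers Dcn was at 10.4 FPKM in PIC144-1 and under 0.5 FPKM in the other lines, Col1a1 was at 0.393 to 1.63 FPKM in IDH1 mutant lines and 0.251 to 0.499 FPKM in IDH1 WT lines, and Rgs5 was near 0 everywhere. In bulk RNA, fewer cells that make a transcript and less transcript per cell cannot be told apart.

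No line had lost the transcripts of any of the 10 genes. Near 0 was defined as a line mean under 0.5 FPKM, and 0 of the 70 combinations of gene and line met it. The lowest was Cdk6 in PC308-1, at 1.15, 0.993 and 0.875 FPKM in its libraries, a mean of 1.01 ± 0.140 FPKM (SD, n = 3). Its 742 fragments over the 3 libraries give a 95% exact Poisson interval of 0.938 to 1.08 FPKM, which covers counting error only. Cdkn2a, whose human counterpart is often deleted in high-grade glioma, was the most abundant member in 4 of 7 lines and was at 139 FPKM or more in each.

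**Figure D1:**
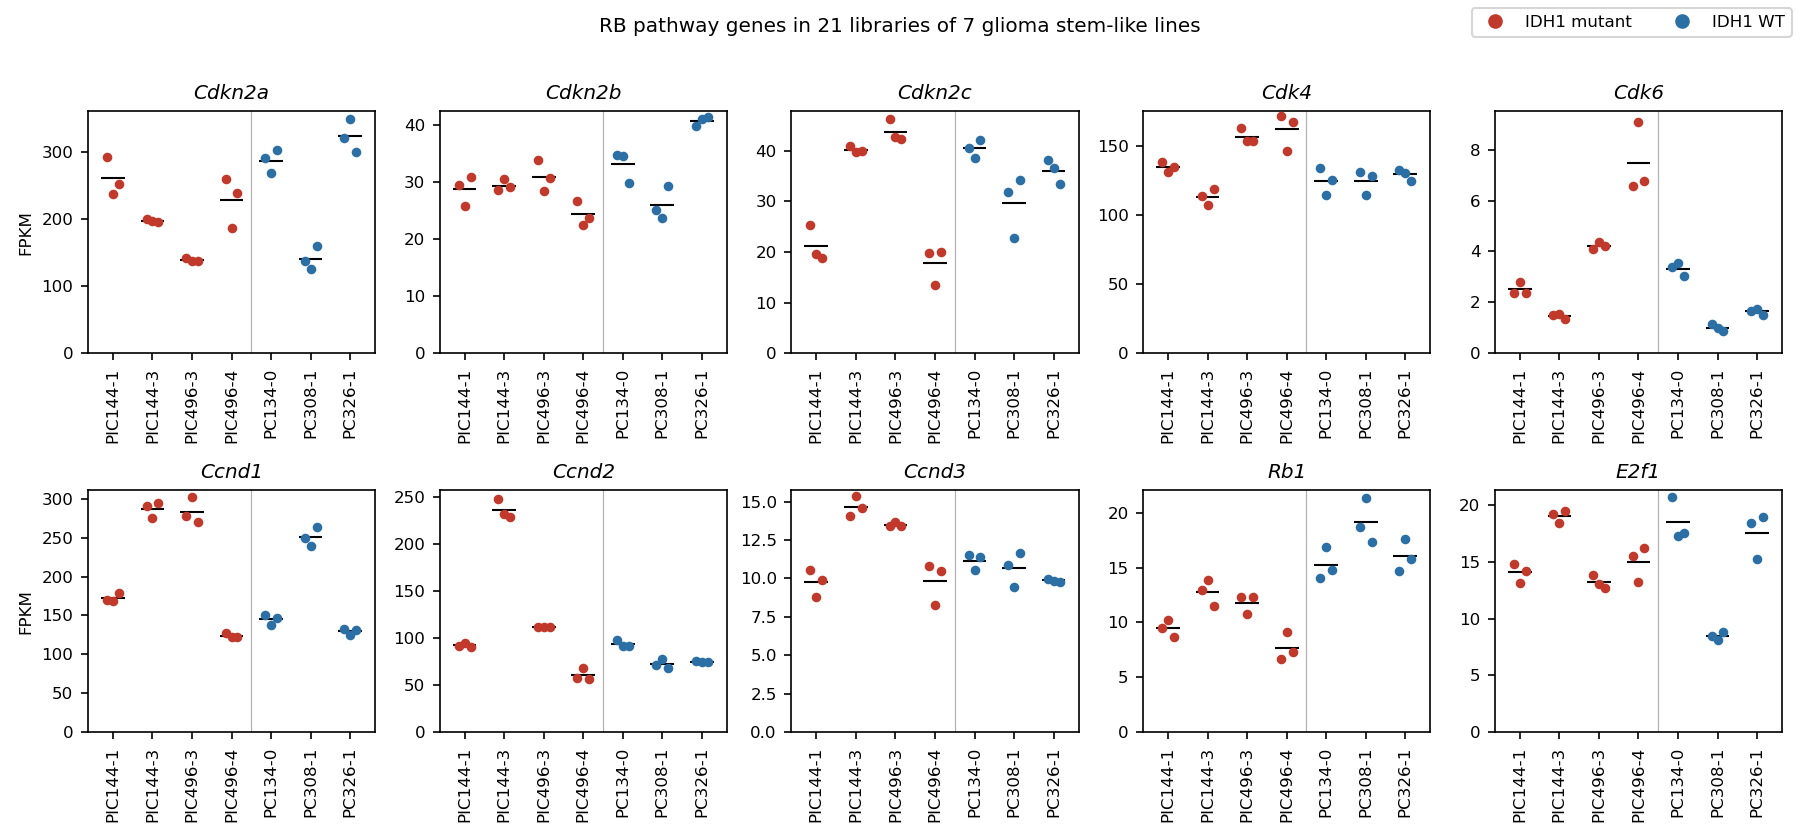
FPKM of each of the 10 genes in the 21 libraries, with 1 panel per gene, the 4 IDH1 mutant lines left of the 3 IDH1 WT lines, points for libraries and black bars for line means. Every gene is above 0 in every line, Rb1 is the only gene whose IDH1 mutant lines all lie below the IDH1 WT lines, and Ccnd2 in PIC144-3 (237 FPKM) and Cdk6 in PIC496-4 (7.47 FPKM) stand above the other lines.

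None of the 10 genes differed between genotypes in the limma test over lines (adjusted p under 0.05 over 13379 genes tested), in which 0.12% of all genes tested passed. At an unadjusted limma p under 0.05, 1 member of 10 passed, Rb1, where 12.8% of all genes tested did. Line means of the genotypes did not overlap in the same single member, where 13.3% of all genes tested did not overlap. Both counts of members are near the background, so they say nothing particular about these genes. Of the members, 6 had a positive log2 difference (IDH1 mutant minus IDH1 WT) and 4 a negative one, with a median of 0.13, against a median of 0.01 over all genes tested.

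Lines of a genotype were compared over their libraries. In the limma F test among the 4 IDH1 mutant lines, 10 of 10 members passed (adjusted p under 0.05), where 80.7% of all genes tested did. Among the 3 IDH1 WT lines 8 of 10 passed, where 61.4% of all genes tested did, and Cdk4 and Ccnd3 did not. Such p-values measure the spread between libraries of a line, which the titles call biological replicates (bio rep). That spread may still be partly technical. The span of the line means was widest for Cdk6, whose highest line was at 7.42 times its lowest, followed by Ccnd2 at 3.89 times, Rb1 at 2.49 times, Cdkn2c at 2.47 times, Cdkn2a at 2.33 times, Ccnd1 at 2.32 times and E2f1 at 2.25 times. Cdkn2b at 1.68 times, Ccnd3 at 1.5 times and Cdk4 at 1.43 times were the most even.

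Cdkn2a encodes 2 unrelated proteins from 2 starts, p16Ink4a, which binds CDK4 and CDK6, and p19Arf, which binds Mdm2 and frees p53. In GRCm38 the gene (ENSMUSG00000044303) lies on chromosome 4 (89274471 to 89294653, minus strand). The annotation gives 2 transcripts, Cdkn2a-201 from the start at 89282192 and Cdkn2a-202 from the start at 89294653. Of their 852 and 895 bases, 277 and 320 are not shared. The union of their exons is 1172 bases, which is the gene length in the deposited table, so the gene's FPKM adds the transcripts of both starts and they cannot be told apart here. The sequences before both starts are shown because the single value below covers both of them. They are RefSeq windows of GRCm38.p6, from 250 bases before to 50 bases after the RefSeq start, read 5′ to 3′ on the minus strand. The first is the distal window, chr4:89294570-89294869, in front of the Arf exon, and the second the proximal window, chr4:89282143-89282442, in front of the Ink4a exon. Capitals mark a match to an E2F motif.
Cdkn2a distal window: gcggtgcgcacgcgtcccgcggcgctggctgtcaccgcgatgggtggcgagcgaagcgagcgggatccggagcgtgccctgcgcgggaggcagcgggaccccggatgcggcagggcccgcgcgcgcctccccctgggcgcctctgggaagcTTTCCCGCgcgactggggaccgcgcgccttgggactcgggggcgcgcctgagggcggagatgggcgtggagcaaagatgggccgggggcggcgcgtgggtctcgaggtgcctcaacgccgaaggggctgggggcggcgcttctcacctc
Cdkn2a proximal window: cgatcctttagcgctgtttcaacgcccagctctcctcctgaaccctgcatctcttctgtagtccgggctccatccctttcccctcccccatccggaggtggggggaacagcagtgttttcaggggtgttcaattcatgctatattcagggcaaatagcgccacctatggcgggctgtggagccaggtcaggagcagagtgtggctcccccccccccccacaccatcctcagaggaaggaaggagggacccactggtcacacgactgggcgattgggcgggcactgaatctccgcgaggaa
The motif searched on both strands had 4 forms of 8 bases, TTTCCCGC, TTTCGCGC, TTTGCCGC and TTTGGCGC. The distal window held 1 match, TTTCCCGC, whose first base lies 99 bases before the RefSeq start, and the proximal window held none. GC content was 77% in the distal and 60.3% in the proximal window. Of all 32851 windows, 2.26% held the motif, and of the 17 windows of the E2F target genes used below 8 did (47.1%). Windows were given for 7 of the 10 members, and no other member window held a match. The windows of E2f1, Cdkn2c and Cdk6 lay wholly inside the gene bodies of the deposited table. For E2f1 the window ran from 154569377 to 154569676, while the gene starts at 154569892 on the minus strand. The sequence before the deposited starts of these genes was therefore not searched. A match is a run of letters and not a measured binding site.

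Transcripts of Cdkn2a were abundant in all lines. In the 12 IDH1 mutant libraries they ranged from 138 to 292 FPKM with a median of 198 FPKM, and in the 9 IDH1 WT libraries from 125 to 349 FPKM with a median of 290 FPKM, so the groups overlapped over most of their range. By line the means were 260 ± 28.0 FPKM in PIC144-1, 198 ± 2.27 in PIC144-3, 139 ± 2.22 in PIC496-3 and 228 ± 37.7 in PIC496-4 among the IDH1 mutant lines. Among the IDH1 WT lines they were 287 ± 17.2 FPKM in PC134-0, 141 ± 17.0 in PC308-1 and 323 ± 25.1 in PC326-1 (SD, n = 3 libraries each). PIC496-3 and PC308-1, of different genotype, were the lowest and overlapped in their libraries, and both lay apart from PIC144-3, the next line. These were also the lines with the high Aldh1l1 levels given above, and what part that difference between lines has was not tested. The log2 difference between genotypes was -0.23 (SE 0.33, 95% interval -1.0 to 0.54, limma adjusted p = 0.782), with 206 ± 51.6 FPKM in IDH1 mutant lines and 250 ± 96.7 FPKM in IDH1 WT lines (SD, n = 4 and 3). Without PC326-1 the log2 difference was 0.0002443. Differences among lines passed the limma F test within both genotypes (adjusted p = 2.9e-06 among IDH1 mutant lines and 2.8e-08 among IDH1 WT lines). In level, Cdkn2a stood at the 98.9th percentile of the genes tested.

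Of the genes beside Cdkn2a, Mtap, Klhl9 and the member Cdkn2b, described below, were well above 0 in every line and the rest were low. Mtap, which makes an enzyme of methionine salvage and is often lost together with CDKN2A in human tumours, was at 44.1, 30.4, 33.6 and 42.7 FPKM in PIC144-1, PIC144-3, PIC496-3 and PIC496-4, against 22.7, 29.9 and 29.5 FPKM in PC134-0, PC308-1 and PC326-1. Every IDH1 mutant line was above every IDH1 WT line, where line means did not overlap in 13.3% of all genes tested. The difference in Mtap did not pass the limma test (log2 0.45, adjusted p = 0.376). Klhl9, an adaptor of a ubiquitin ligase, was at 29.6, 42.6, 38 and 38.5 FPKM in those IDH1 mutant lines, against 35.3, 48.7 and 34.9 FPKM in IDH1 WT lines. Dmrta1, a DM domain factor gene on the far side of Cdkn2b, was low and near 0 in PIC144-3 and PIC496-4, at 0.803, 0.267, 0.677 and 0.147 FPKM in IDH1 mutant lines and 1.65, 2.72 and 1.51 FPKM in IDH1 WT lines (adjusted p = 0.242). The other genes within 1 Mb that reached 0.5 FPKM in a line were low, namely Mrpl48-ps at up to 4.17 FPKM, Gm12610 at up to 2.85 FPKM, Gm12609 at up to 1.14 FPKM, Gm26490 at up to 1.07 FPKM and AL805899.1 at up to 0.943 FPKM. Gm26490 was at 0 in PIC144-1 and PIC144-3, and AL805899.1 in PIC496-3, PIC496-4 and PC308-1. As in Mtap, line means did not overlap in Dmrta1, which was lower in every IDH1 mutant line. They did not overlap in Mrpl48-ps either, at 1.72 FPKM or more in IDH1 mutant lines and at most 1.70 FPKM in IDH1 WT lines.

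Cdkn2b, next to Cdkn2a on chromosome 4 (89306299 to 89311039, minus strand), encodes p15Ink4b, an INK4 inhibitor induced by TGF-beta in many cell types. It was at 28.7 ± 2.67, 29.3 ± 0.976, 30.9 ± 2.74 and 24.3 ± 2.18 FPKM in PIC144-1, PIC144-3, PIC496-3 and PIC496-4, and PC134-0, PC308-1 and PC326-1 had 33.0 ± 2.75, 26.0 ± 2.98 and 40.7 ± 0.835 FPKM. In the order of the lines every neighbour overlapped except the highest, PC326-1, which lay apart. The genotype difference was -0.21 on the log2 scale (95% interval -0.62 to 0.20, limma adjusted p = 0.613). Among IDH1 mutant lines the F test gave an adjusted limma p of 0.011, which became 0.0723 without the second library of PIC496-4, and among IDH1 WT lines 2.6e-05.

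The third inhibitor, Cdkn2c, lies apart from the pair on chromosome 4 (109660876 to 109667189, minus strand) and encodes p18Ink4c. Its IDH1 mutant lines split, with 40.2 ± 0.702 FPKM in PIC144-3 and 43.8 ± 2.13 in PIC496-3, and 21.3 ± 3.56 in PIC144-1 and 17.7 ± 3.77 in PIC496-4. The split ran across the shared line numbers, since each number had 1 high and 1 low line. IDH1 WT lines lay between 29.6 ± 6.05 FPKM in PC308-1 and 40.5 ± 1.77 FPKM in PC134-0, with PC326-1 at 36.1 ± 2.46 FPKM. The limma F test gave an adjusted p of 2.7e-07 among IDH1 mutant lines. Among IDH1 WT lines it was 0.0313, and the call was lost on leaving out 3 of the 9 libraries in turn, namely PC134-0 replicate 1 (0.0619), PC134-0 replicate 3 (0.0735) and PC308-1 replicate 2 (0.182). The genotype difference was -0.29 (95% interval -1.07 to 0.48, limma adjusted p = 0.717).

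Summed over the 4 INK4 genes, with Cdkn2d included, the lines held 332, 306, 242 and 294 FPKM in PIC144-1, PIC144-3, PIC496-3 and PIC496-4, and 389, 230 and 426 FPKM in PC134-0, PC308-1 and PC326-1. Cdkn2a made up 57.3% to 78.4% of the sum in IDH1 mutant lines and 61.1% to 75.9% in IDH1 WT lines, a share that includes its Arf transcripts. The genotypes overlapped in both the sum and the share.

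**Figure D2:**
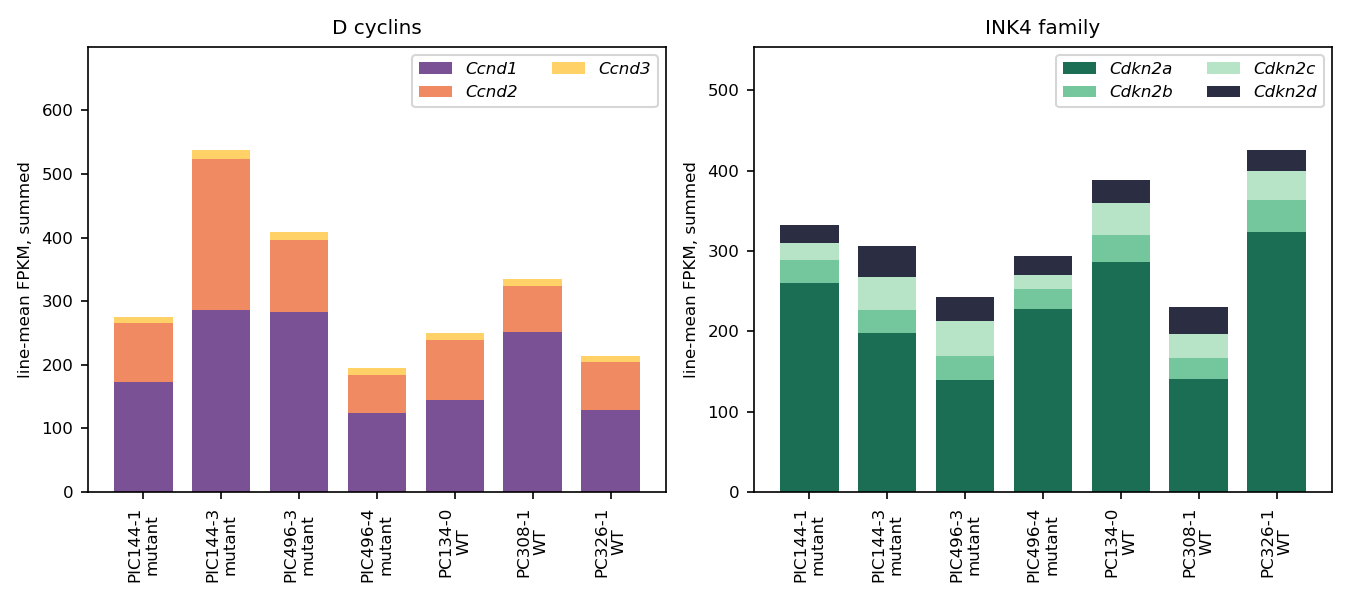
Line-mean FPKM stacked for the D cyclins (left) and the INK4 family (right), with the 4 IDH1 mutant lines left of the 3 IDH1 WT lines. Ccnd1 is the largest part of the D cyclins in every line, the tallest D cyclin bar is PIC144-3 at 538 FPKM, and Cdkn2a is the largest part of the INK4 sum in every line.

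Of the kinases, Cdk4 was the abundant and even one. It lies on chromosome 10 (127063534 to 127067920, plus strand). In the IDH1 mutant libraries it ranged from 108 to 172 FPKM (median 143) and in the IDH1 WT libraries from 115 to 134 FPKM (median 128). PIC496-4 (162 ± 13.6 FPKM) and PIC496-3 (157 ± 5.36) were the highest lines and lay apart from PIC144-1 (135 ± 3.57), and PIC144-3 was the lowest (113 ± 5.70). The 3 IDH1 WT lines PC134-0 (125 ± 9.76 FPKM), PC308-1 (125 ± 8.76) and PC326-1 (130 ± 4.11) were not told apart by the limma F test (adjusted p = 0.718), while the IDH1 mutant lines differed (7.6e-06). Between genotypes the log2 difference was 0.15 (95% interval -0.21 to 0.51, limma adjusted p = 0.686). Tspan31 overlaps Cdk4 on the opposite strand and was at 35.3 to 43.9 FPKM, and the use of strand in counting is not given in the sources used here.

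Cdk6, on chromosome 5 (3341485 to 3531008, plus strand), was far lower than Cdk4 per length and varied most among the lines. Its level was 2.51 ± 0.234 FPKM in PIC144-1, 1.46 ± 0.112 in PIC144-3, 4.23 ± 0.147 in PIC496-3 and 7.47 ± 1.41 in PIC496-4. In the IDH1 WT lines it was 3.31 ± 0.264 FPKM in PC134-0, 1.01 ± 0.140 in PC308-1 and 1.64 ± 0.120 in PC326-1. Of the 6 neighbouring pairs in this order only PIC144-3 and PC326-1 overlapped in their libraries. PIC496-4 was highest, with libraries at 6.57, 9.10 and 6.75 FPKM. Differences among lines passed the limma F test in both genotypes (adjusted p = 3.6e-11 among IDH1 mutant and 1.7e-08 among IDH1 WT lines). Between genotypes, 3.92 ± 2.63 FPKM in IDH1 mutant lines and 1.99 ± 1.19 FPKM in IDH1 WT lines (SD, n = 4 and 3) gave a log2 difference of 0.74 (SE 0.51, 95% interval -0.44 to 1.93, limma adjusted p = 0.545). The FPKM of Cdk4 was 53.8, 77.8, 37.1 and 21.7 times that of Cdk6 in PIC144-1, PIC144-3, PIC496-3 and PIC496-4. In PC134-0, PC308-1 and PC326-1 it was 37.8, 124 and 78.8 times. Cdk6 was thus 0.80% to 4.40% of the summed FPKM of both kinases, over deposited gene lengths of 13989 bases for Cdk6 and 3249 for Cdk4.

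By the Pearson correlation of line means over 7 lines, the genes most like Cdk6 among 11259 compared were Aars2 (r = 0.988), the mitochondrial alanyl-tRNA synthetase gene, Ccdc184 (r = 0.987) and Morf4l2 (r = 0.967), and 11 genes reached 0.95. With 7 points and so many genes such values are a description of these lines only. Aars2 was highest in PIC496-4 (6.34 FPKM) and lowest in PC308-1 (3.48 FPKM), as Cdk6 was.

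Ccnd1, on chromosome 7 (144929931 to 144939925, minus strand), encodes cyclin D1 and was the most abundant D cyclin in every line. Lines formed a high and a low set that each held both genotypes. PIC144-3 (287 ± 9.97 FPKM), PIC496-3 (283 ± 16.8) and PC308-1 (251 ± 11.9) were high. PIC144-1 (172 ± 5.33), PIC496-4 (124 ± 2.74), PC134-0 (145 ± 7.02) and PC326-1 (130 ± 4.26) were low. The lowest library of the high lines was at 240 FPKM, in PC308-1, and the highest library of the low lines at 178 FPKM, in PIC144-1. In the limma F test the adjusted p was 5.9e-13 among IDH1 mutant lines and 9.3e-11 among IDH1 WT lines. Genotypes differed by 0.28 on the log2 scale (95% interval -0.55 to 1.12, limma adjusted p = 0.748).

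Ccnd2, which encodes cyclin D2 and is a known growth-factor responsive cyclin of neural progenitors, lies on chromosome 6 (127125162 to 127152193, minus strand). PIC144-3 stood far above the rest, with 248, 233 and 229 FPKM in its libraries and a mean of 237 ± 10.2 FPKM. PIC496-3 followed at 112 ± 0.320 FPKM, with PIC144-1 at 92.6 ± 2.42 and PIC496-4 lowest at 60.8 ± 6.65. The IDH1 WT lines were at 93.9 ± 3.57 FPKM in PC134-0, 72.6 ± 4.88 in PC308-1 and 75 ± 0.832 in PC326-1. PIC144-3 and PIC144-1, which share a number, thus differed more than any pair of IDH1 WT lines. The limma F test passed in both genotypes (adjusted p = 5.1e-14 among IDH1 mutant lines and 0.00012 among IDH1 WT lines). Genotypes overlapped, with a log2 difference of 0.47 (SE 0.41, 95% interval -0.49 to 1.42, limma adjusted p = 0.63).

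Most genes around Ccnd2 were also higher in PIC144-3 than in most lines. Each line's value was set against the median of the 7 lines on the log2(FPKM + 0.5) scale. Ccnd2 was 1.35 above that median in PIC144-3. Of the 76 other tested genes within 5 Mb, 59 were above their medians in PIC144-3 and 10 below, with a median deviation of 0.43, and 3 of the 76 deviated as much as Ccnd2 or more. On the side of higher coordinates, all genes from Gm44066 at 1.70 Mb to Gm22362 at 4.24 Mb were below, by -1.24 to -0.36. Over the whole chromosome the median deviation in PIC144-3 was -0.07. All 10 other tested genes within 1 Mb were above, by 0.06 to 1.60 with a median of 0.68, among them Ndufa9 (0.92), a respiratory chain subunit gene, and Tigar (0.66), a p53-induced phosphatase gene. The highest, the hormone gene Fgf23 (1.60), was also high in PIC496-3 (1.88) and PIC496-4 (1.42). PC134-0 had 58 of 76 genes above their medians, with a median deviation of 0.33, while its Ccnd2 was at 0.02. PIC144-1 had 36 above and 32 below, with a median of 0. DNA copy number was not measured, so its part in these levels was not tested.

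**Figure D3:**
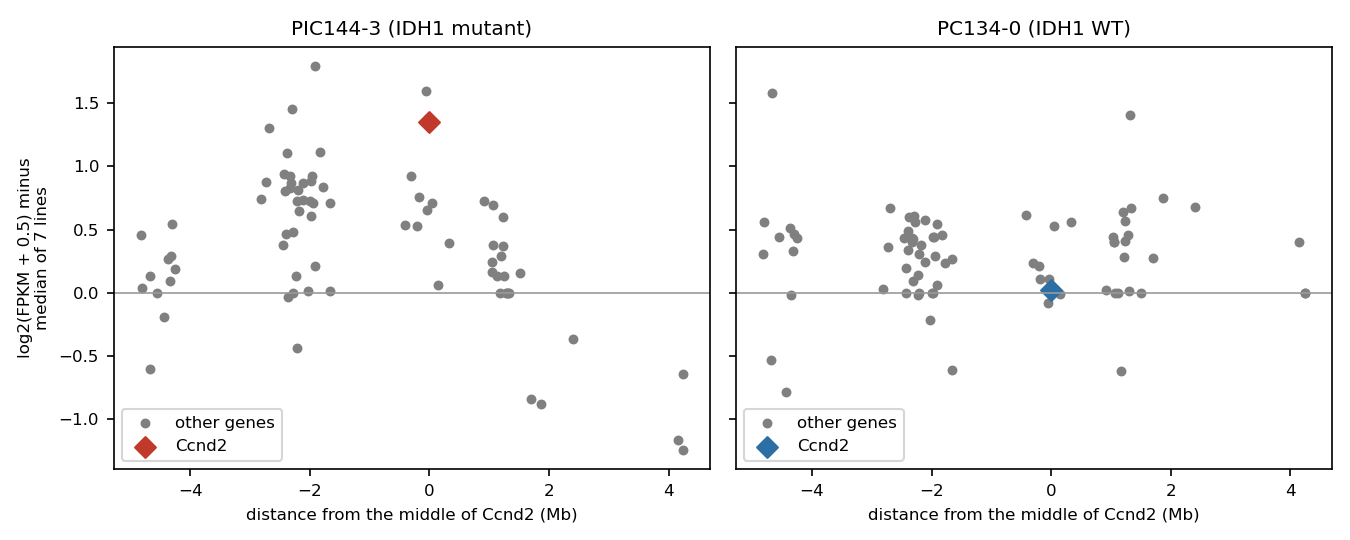
Deviation of each tested gene from the median of the 7 lines, in log2(FPKM + 0.5), against its distance in Mb from the middle of Ccnd2, in PIC144-3 (IDH1 mutant, left) and PC134-0 (IDH1 WT, right). In PIC144-3 most points are above 0 and Ccnd2 (diamond) is at 1.35, while in PC134-0 most points are above 0 and Ccnd2 is at 0.02.

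The genes most like Ccnd2 over the 7 line means were Tprgl (r = 0.981), Nat6 (r = 0.970) and Mlf2 (r = 0.967), and 9 genes reached 0.95. Mlf2 is among the 76 genes within 5 Mb of Ccnd2 and was at 168 FPKM in PIC144-3 and at 74.7 to 102 FPKM in the other lines. For Cdkn2c they were Lor (r = 0.987), a cornified envelope gene, Arhgap26 (r = 0.983) and Wnt5a (r = 0.971), a Wnt ligand gene, and 16 genes reached 0.95. Wnt5a was at 1.91, 5.97, 9.03 and 1.04 FPKM in PIC144-1, PIC144-3, PIC496-3 and PIC496-4, while PC134-0, PC308-1 and PC326-1 had 9.04, 4.35 and 8.64 FPKM.

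Ccnd3, the cyclin D3 gene on chromosome 17 (47505051 to 47599691, plus strand), was the least abundant D cyclin in every line. PIC144-3 at 14.7 ± 0.672 FPKM and PIC496-3 at 13.5 ± 0.172 FPKM lay apart from the other lines, which were at 9.75 ± 0.889 in PIC144-1 and 9.85 ± 1.39 in PIC496-4, and at 11.2 ± 0.533, 10.6 ± 1.10 and 9.87 ± 0.0862 in PC134-0, PC308-1 and PC326-1. The limma F test passed among the IDH1 mutant lines (adjusted p = 8.4e-06) and not among the IDH1 WT lines (0.252), although with values rescaled to TPM the IDH1 WT lines gave 0.019. The genotype difference was 0.15 (95% interval -0.26 to 0.56, limma adjusted p = 0.73). Bysl overlaps the gene on the opposite strand and was at 10.2 to 17.0 FPKM, so without strand in the counting reads of the pair could not be separated.

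Together the D cyclins summed to 275, 538, 409 and 194 FPKM in PIC144-1, PIC144-3, PIC496-3 and PIC496-4, and to 250, 334 and 214 FPKM in PC134-0, PC308-1 and PC326-1. Ccnd1 made up 53.3% to 69.3% of the sum in IDH1 mutant lines and 57.9% to 75.1% in IDH1 WT lines. PIC144-3 had the lowest share of Ccnd1 and the highest of Ccnd2 (44.0%), and PC308-1 had the highest share of Ccnd1 and the lowest of Ccnd2 (21.7%). Ccnd3 was 2.73% to 5.07% of the sum over the 7 lines.

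Rb1, on chromosome 14 (73183673 to 73325822, minus strand), encodes the pocket protein that the D cyclin kinases inactivate. In the IDH1 mutant lines it was at 9.46, 10.2 and 8.67 FPKM in the libraries of PIC144-1, 13, 13.9 and 11.5 in PIC144-3, 12.3, 10.7 and 12.3 in PIC496-3 and 6.62, 9.12 and 7.34 in PIC496-4. The IDH1 WT lines had 14, 16.9 and 14.7 FPKM in PC134-0, 18.7, 21.3 and 17.4 in PC308-1 and 14.7, 17.6 and 15.8 in PC326-1. Every IDH1 mutant library was below every IDH1 WT library, the closest being 13.9 FPKM in PIC144-3 and 14 FPKM in PC134-0. Line means averaged 10.4 ± 2.30 FPKM in IDH1 mutant lines and 16.8 ± 2.07 FPKM in IDH1 WT lines (SD, n = 4 and 3). The log2 difference was -0.68 (SE 0.19, 95% interval -1.13 to -0.23), with an unadjusted limma p of 0.0085 and an adjusted p of 0.283. An exact two-sided permutation of the lines gave 0.0286, the smallest p that the 35 splits allow. That p requires line means that do not overlap, as 13.3% of all genes tested had. The libraries of a line are not further replicates of its genotype. Over 21 other settings the log2 difference stayed between -0.78 and -0.55 and the adjusted limma p between 0.0658 and 0.835, so none called it.

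In order of level PIC496-4 and PIC144-1 were lowest and overlapped, PIC496-3 and PIC144-3 came next and overlapped, and the 3 IDH1 WT lines followed and overlapped with their neighbours. The limma F test gave an adjusted p of 5.3e-05 among IDH1 mutant lines. Among IDH1 WT lines it was 0.0424. That call was lost on leaving out 6 of the 9 libraries in turn, namely replicates 1 and 3 of PC134-0 (0.0966 and 0.0825), replicates 1 and 2 of PC308-1 (0.0851 and 0.222) and replicates 1 and 3 of PC326-1 (0.0564 and 0.0579). The second libraries of PC134-0 and PC308-1 each had the lowest value of their line in 7 of the 10 members, yet for Rb1 the highest. The second library was the highest for Rb1 in 6 of the 7 lines, all but PIC496-3. This was not particular to Rb1. For Cdk6 the second library was also the highest in 6 of the 7 lines. For Cdk4 and for E2f1 it was the lowest in 6 of the 7 lines. Among the 51 tested genes within 5 Mb of Rb1 the median log2 difference was -0.13, and 32 of them were negative, while its whole chromosome had a median of -0.01. By line, the median deviation of these genes from the 7-line median was -0.02, -0.28, 0 and 0.02 in PIC144-1, PIC144-3, PIC496-3 and PIC496-4. It was 0, 0.16 and 0 in PC134-0, PC308-1 and PC326-1. Rb1 itself deviated by -0.42, 0, -0.11 and -0.70 in those IDH1 mutant lines and by 0.24, 0.56 and 0.31 in the IDH1 WT lines. Rcbtb2 and Lpar6 overlap Rb1 on the opposite strand, at 3.42 to 8.29 and 1.20 to 2.26 FPKM.

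**Figure D4:**
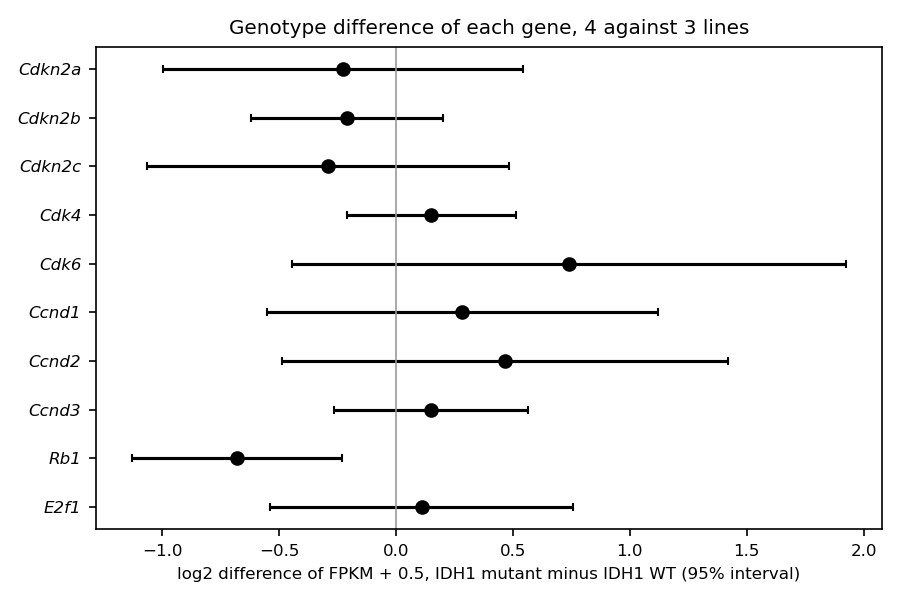
Log2 difference of FPKM + 0.5 between genotypes, IDH1 mutant minus IDH1 WT, for each of the 10 genes, with points for estimates and bars for 95% intervals over 4 and 3 lines. The interval of Rb1, from -1.13 to -0.23, is the only one that leaves out 0, before any adjustment for the number of genes tested.

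E2f1, on chromosome 2 (154559407 to 154569892, minus strand), encodes the E2F factor best known for driving entry into S phase, and it is itself an E2F target. PC308-1 was the lowest line by a clear margin, with 8.47, 8.13 and 8.79 FPKM in its libraries, while the lowest library of any other line was at 12.7 FPKM, in PIC496-3. IDH1 mutant lines were at 14.1 ± 0.852, 19.1 ± 0.565, 13.2 ± 0.592 and 15 ± 1.57 FPKM in PIC144-1, PIC144-3, PIC496-3 and PIC496-4. In IDH1 WT lines it was 18.5 ± 1.89 FPKM in PC134-0, 8.46 ± 0.327 in PC308-1 and 17.6 ± 2.03 in PC326-1. Among IDH1 mutant lines the F test gave an adjusted limma p of 0.00019, and among IDH1 WT lines 5.3e-09. Between genotypes the log2 difference was 0.11 (95% interval -0.54 to 0.76, limma adjusted p = 0.886), and it was -0.24 (adjusted p = 0.515) without PC308-1.

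Of 20 E2F target genes of DNA synthesis, all tested, 0 passed the genotype test in either direction in limma, and 3 had an unadjusted p under 0.05, where 12.8% of all genes tested did. Positive log2 differences were seen in 16 and negative ones in 4, with a median of 0.21, where 6796 of all 13379 genes tested were positive and the median was 0.01. The smallest p belonged to Orc1, a subunit of the origin recognition complex, at 3.27 ± 0.771 FPKM in IDH1 mutant lines and 1.98 ± 0.138 FPKM in IDH1 WT lines (log2 0.58, unadjusted p = 0.022, limma adjusted p = 0.344). Cdc6, which loads the replicative helicase, was at 6.86 ± 1.03 FPKM in IDH1 mutant lines and 5.02 ± 0.327 FPKM in IDH1 WT lines (log2 0.41, limma adjusted p = 0.369). Both genes had no overlap between the genotypes' line means, and the other 18 did, where 13.3% of all genes tested had none. The counts of small p and of no overlap in this list are near those shares. Pcna, the sliding clamp and the most abundant of the list, was at 83.8 ± 16.2 FPKM in IDH1 mutant lines and 95.9 ± 29.0 FPKM in IDH1 WT lines (limma adjusted p = 0.803).

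By line, the median deviation of the 20 targets from the 7-line median was 0.18, -0.11, 0.12 and 0.42 in PIC144-1, PIC144-3, PIC496-3 and PIC496-4, and 0, -0.25 and 0 in PC134-0, PC308-1 and PC326-1. PC308-1 was thus lowest in E2f1 and in its listed targets, while PIC144-3 had the highest E2f1 and targets below the median. Of 8 proliferation markers 0 passed the limma genotype test, where 0.12% of all genes tested did. An unadjusted limma p under 0.05 was seen in 1 of the 8, where 12.8% of all genes tested had one. In PC308-1 the median deviation of these markers was -0.31, in PIC496-4 0.20, and the part of slower or faster growth in the levels above was not tested. Birc5, the survivin gene, was at 15.7 ± 2.52 FPKM in IDH1 mutant lines and 12 ± 0.538 FPKM in IDH1 WT lines (log2 0.36, limma adjusted p = 0.381), and Plk1, a mitotic kinase gene, at 63.7 ± 8.44 FPKM in IDH1 mutant lines and 48.6 ± 8.98 FPKM in IDH1 WT lines (log2 0.39, adjusted p = 0.398). Top2a, the topoisomerase gene and the most abundant marker, was at 87.1 ± 10.1 FPKM in IDH1 mutant lines and 76.4 ± 9.40 FPKM in IDH1 WT lines (limma adjusted p = 0.601).

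Of 18 further RB pathway genes, all tested, 0 passed the genotype test in limma, where 0.12% of all genes tested did. At an unadjusted limma p under 0.05, 1 of the 18 passed, where 12.8% of all genes tested did. Log2 differences were positive in 9 and negative in 9, with a median of 0.03. Rbl1, the gene of the pocket protein p107 and a relative of Rb1, had the smallest p. It was at 4.74, 5.50, 5.59 and 5.33 FPKM in PIC144-1, PIC144-3, PIC496-3 and PIC496-4, against 8.81, 6.11 and 9.35 FPKM in PC134-0, PC308-1 and PC326-1. The line means of Rbl1 did not overlap (log2 -0.55, SE 0.17, unadjusted p = 0.014, limma adjusted p = 0.313), where 13.3% of all genes tested did not overlap. Its limma F test among the IDH1 mutant lines, unlike that of Rb1, was not passed (adjusted p = 0.226). Rbl1 lies on chromosome 2, as E2f1 does, and over that chromosome the median log2 difference was -0.12. Of the 116 tested genes within 5 Mb of E2f1, 89 were negative, with a median of -0.23. Their median deviation was 0.26, -0.05 and 0.20 in PC134-0, PC308-1 and PC326-1, and -0.10 to 0 in IDH1 mutant lines. Whether the level of Rbl1 goes with its region was not tested. E2f4, an E2F mostly bound to pocket proteins, was at 19.7 ± 2.78 FPKM in IDH1 mutant lines and 15.4 ± 1.57 FPKM in IDH1 WT lines (log2 0.34, limma adjusted p = 0.399). Cdkn1b, the gene of the CDK2 inhibitor p27 and the most abundant of the list by the mean over all 7 lines, was at 41.3 ± 9.98 FPKM in IDH1 mutant lines and 65.3 ± 24.2 FPKM in IDH1 WT lines (log2 -0.63, limma adjusted p = 0.408), with 92.9 FPKM in PC134-0. Within the IDH1 mutant lines the mean of Tfdp1, the gene of an E2F partner, was higher than that of Cdkn1b, at 46.0 ± 9.20 FPKM. Between genotypes Tfdp1 did not pass the limma test, and its line means overlapped.

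**Figure D5:**
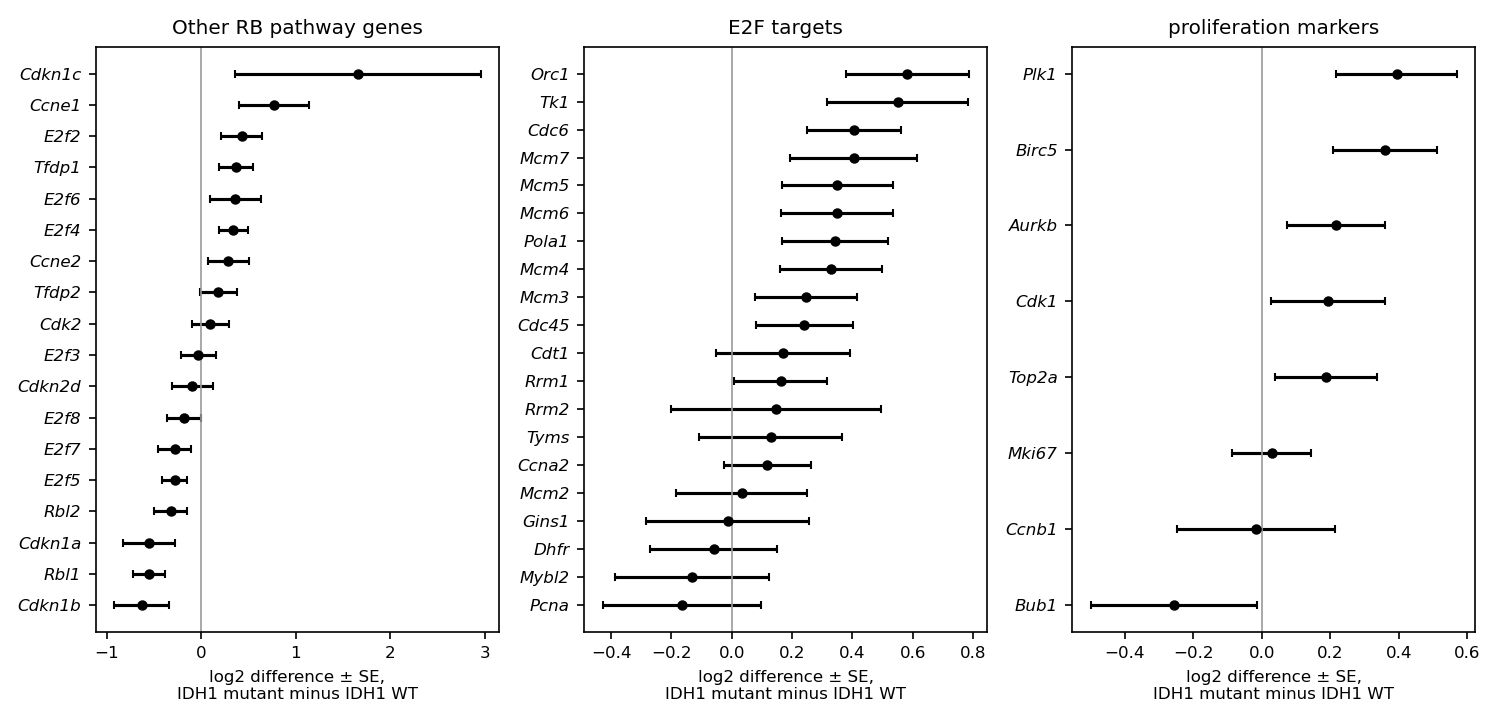
Log2 difference of FPKM + 0.5 between genotypes, IDH1 mutant minus IDH1 WT, with its SE, for 18 further RB pathway genes, 20 E2F target genes and 8 proliferation markers, on a separate scale in each panel. Of the E2F targets 16 of 20 points are above 0, the other RB pathway genes divide into 9 and 9, and none of the genes passed the adjusted test.

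Cdkn1c, the imprinted gene of the CDK inhibitor p57, was the only one of these 18 that was near 0 in some lines. It was at 0.336 FPKM in PIC144-1, from 34 fragments, 2.13 in PIC144-3, 2.52 in PIC496-3 and 29.3 ± 2.38 in PIC496-4. In the IDH1 WT lines it was at 0.00886 FPKM in PC134-0, from 1 fragment over 3 libraries, 5.38 ± 1.45 in PC308-1 and 0.0603 in PC326-1, from 6 fragments. Levels under 0.5 FPKM thus occurred in 1 IDH1 mutant line and 2 IDH1 WT lines, and the IDH1 mutant one was detected in 34 fragments.

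Partners of the Arf product were measured for the Arf side of Cdkn2a. Npm1, the nucleolar protein that holds Arf, was at 336, 297, 296 and 555 FPKM in PIC144-1, PIC144-3, PIC496-3 and PIC496-4, against 181, 254 and 231 FPKM in PC134-0, PC308-1 and PC326-1. Its line means did not overlap (log2 0.70, SE 0.25, limma adjusted p = 0.351), where 13.3% of all genes tested did not overlap. Trp53, the p53 gene, was at 4.20, 1.24, 5.98 and 16.1 FPKM in those IDH1 mutant lines, against 1.52, 1.69 and 1.40 FPKM in IDH1 WT lines (log2 1.42, limma adjusted p = 0.409). Mdm2, whose product degrades p53, was even, at 12.8, 13.2, 13.5 and 13.6 FPKM in IDH1 mutant lines and 13.5, 12.3 and 13.3 FPKM in IDH1 WT lines.

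Across the 7 line means the 45 pairs of members gave 2 Pearson correlations over 0.8 and 1 under -0.8, described here without a test because 7 lines from perhaps fewer animals are few points. Ccnd2 and Ccnd3 ran together (r = 0.87, Spearman correlation 0.75, and r = 0.72 without the 2 lines farthest in Ccnd2). Cdk4 and Cdk6 did as well (r = 0.84, Spearman correlation 0.86), but r was 0.36 without PIC496-3 and PIC496-4, so that relation rests on these lines. Cdkn2a and Ccnd1 ran in opposite directions (r = -0.82, Spearman correlation -0.68, and r = -0.69 without PC308-1 and PIC496-3). PIC496-3 and PC308-1 had the 2 lowest Cdkn2a levels and were among the 3 lines with the highest Ccnd1, and PC326-1 had the highest Cdkn2a and the next to lowest Ccnd1. All members of a line come from the same libraries, so errors of a library are shared by both genes of a pair.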

How the data were processed

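Polyadenylated RNA of 7 cell lines was sequenced in 21 strand-specific paired-end libraries, per the labels' protocols. The submitters' processing notes name HISAT2 and the build mm39. Counter, annotation and strand setting were not given in the sources used here. In the deposited table the authors give FPKM for 54532 genes. Gene coordinates in the table are those of GRCm38 for all 10 members (53585 of 54495 matched gene IDs had the same coordinates in GENCODE's GRCm38 annotation), so they are given in GRCm38. There, 27 symbols stored as dates were restored by gene ID.

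FPKM times gene length gave whole fragments for 100% of the values under 1000 fragments, within 0.05 fragments. Limma 3.58.1 in R 4.3.3 (eBayes with trend and robust) was run on log2(FPKM + 0.5), a scale that understates the change of low genes, over genes with a line mean of at least 0.5 FPKM in at least 3 of 7 lines. The genotype belongs to the line, so line means were compared (4 IDH1 mutant, 3 IDH1 WT). F tests among the lines of a genotype used the 21 libraries. P-values were adjusted by Benjamini-Hochberg over all 13379 genes, with a threshold of 0.05. Code was tested on simulated data. Figures were drawn with matplotlib 3.10.9.

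Members and gene lists were chosen with earlier results of these data known. All members are named, and of each pathway list (RB pathway, E2F targets, proliferation, Arf partners) those that passed, or else the 2 with the smallest p, with the most abundant gene, the genes near 0 in some lines, all genes within 1 Mb of Cdkn2a that reached 0.5 FPKM in a line, and the 3 genes most like each of the 3 most variable members. The genes around Ccnd2 were picked with their values in view, and so were the correlations between members. Alternatives included other pseudocounts, filters and scalings, plain eBayes, limma voom on recovered fragments, a replicate block, averaging lines that share a number, and leaving out each line, library or replicate. Averaging after taking log2 was added after seeing the data. 1 marker of the cell type list is not reported here. Sequences are RefSeq's.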

Additional observations from a re-analysis of the deposited data

How the results depend on the processing

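No member passed the genotype test under any of 21 alternatives, and 208 of their log2 differences kept their sign while 2 did not. These were E2f1, at -0.2412 without PC308-1 (range over removals to 0.302), and Cdkn2a, at 0.0002443 without PC326-1 (range over removals from -0.5991). The count over all genes, 16, was less stable. It was 3 with no filter, 8 with the stricter filter, 5 with limma voom and 6 with lines sharing a number averaged. Leaving out single lines or replicates gave 0 to 29 calls: 0 without PC134-0 or PC326-1 (limma, 693 and 923 at an unadjusted p under 0.05), 5 without PIC496-4, 9 without PIC144-1, 10 without PIC496-3 and 29 without PC308-1. With the replicate block and the line as a random effect the count was 440, none of them a member. Replicate numbers were not taken to pair the libraries in the main fits, by a rule that asked for every same-numbered pair to be over 0.1. That rule cannot tell whether some libraries share an effect, so no conclusion is drawn from it. The deviations of same-numbered libraries correlated at -0.124 to 0.292 (median 0.0149), with 14 of 63 pairs over 0.1. Of differently numbered pairs 10 of 126 were over 0.1 (median -0.0107). With the replicate block the F tests called 10959 genes among the IDH1 mutant and 8468 among the IDH1 WT lines, where 10801 and 8215 were called without it. Counts in both F tests stayed within 1.5 times under all alternatives. Of the members' F calls among IDH1 mutant lines 209 kept their side of the threshold and 1 did not, and among IDH1 WT lines 165 did and 15 did not. Apart from removals of a library, the changes in the limma fits were Rb1 among IDH1 WT lines with no filter (adjusted p = 0.0922), with TPM (0.181), with plain eBayes (0.0519) and with voom (0.0635), Cdkn2c with no filter (0.0688), and Ccnd3 with TPM (0.019). The cause of these changes was not tested. The count of members near 0 was 0 at limits of 0.1 and 1 FPKM and with TPM too. Depth limited Cdk6 most, with 216 fragments in its lowest library.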
